A study of Mus musculus with 71 samples.

Results

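The cells described here are γδ intraepithelial lymphocytes (IELs) of the mouse small intestine that carried transcripts of Tcf7, Id3, Tgm2 or Batf3. They were chosen by measured values, in 6 single-cell RNA-sequencing libraries, namely their counts of unique molecular identifiers (UMIs, each standing for 1 captured transcript). A barcode entered when it had at least 500 detected genes and at least 5 UMIs of the CD3 genes Cd3d, Cd3e and Cd3g. It was taken when it held at least 2 UMIs of Tcf7, Id3, Tgm2 and Batf3 together, more than its sum of Spp1, Fcgr3 and Tyrobp and also more than its sum of Scin, Gzmk and Il7r. This gave 3839 cells of 23644 gated cells (16.2%). The other gated cells were 9256 cells led by Spp1, Fcgr3 and Tyrobp, 5535 led by Scin, Gzmk and Il7r, and 5014 that met none of the 3 rules. Because counts of 4 genes chose the cells, all comparisons of these cells with other cells of the same libraries are descriptions without a test.

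Tcf7 encodes TCF-1, a DNA-binding factor that acts with β-catenin in the Wnt pathway and is known for keeping naive, memory and stem-like T cells in a state from which effector cells can be renewed. Id3 encodes an inhibitor that binds E proteins, keeps them off DNA, and is induced by strong antigen receptor signals during γδ T cell development. Intestinal γδ IELs sit between epithelial cells and usually store granzymes and other cytolytic proteins, so a cell with little of these proteins stands out among them.

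The study asked how butyrophilin-like 2, an epithelial member of a family that shapes γδ T cells, acts on IELs along the small intestine. γδ IELs were sorted from the duodenum, jejunum and ileum of WT (wild type) and Btnl2-KO mice, both on the C57BL/6 strain, and the labels give their age as 8 to 10 weeks for the single-cell libraries and 10 weeks for the bulk libraries. Btnl2-KO (genotype label Btnl2-/-) is a null allele present in all cells of the animal, with LacZ placed at the start codon of Btnl2 and a selection cassette behind it. No group received a treatment, all mice were female littermates from heterozygous parents, and WT mice carried no cassette. Each bulk library came from a pool of 2 mice, and a part of every sorted sample was pooled again into 1 single-cell library per segment and genotype. With 1 library for each of the 6 groups, no difference between single-cell groups has a replicate, and shares are given with exact (Clopper-Pearson) 95% intervals that cover counting error only.

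The single-cell tables held 23994 barcodes, of which 23570 passed the minimum of 500 genes and the maximum of 10% mitochondrial UMIs that the study states, and the median depth of the gated cells outside the class lay between 4884 and 5413 UMIs per library. In WT libraries the duodenum gave 27 UMIs of Btnl2, the jejunum 11 and the ileum 6, and in the Btnl2-KO libraries these were 0, 1 and 0, while LacZ had 16, 11 and 21 UMIs in the Btnl2-KO libraries and 0 in each WT library. Of the gated barcode sequences, 357 (1.53%) occurred in more than 1 library, and 7 occurred in more than 1 library among the chosen cells. A doublet caller marked 12 of all barcodes, between 0.0251% and 0.0641% per library, which is too few for the caller to have worked, so doublets were in effect not removed. The bulk γδ IEL libraries held 13444958 to 30029485 counts each. The 17 γδ T cell receptor genes looked for by symbol were absent from the single-cell counts used here. Of 6 αβ T cell genes only Cd4, Cd8b1 and Foxp3 were present, without the receptor constant genes. The γδ identity of the cells thus rests on the sort and could not be checked from receptor transcripts.

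The label of the class names 3 genes, and the cells carried them unequally. Tcf7 had a UMI in 75.2 to 82.8% of the cells per library, Id3 in 59.4 to 68.6% and Tgm2, tissue transglutaminase, which links proteins to each other, in 47.6 to 58.1%. Batf3, an AP-1 family factor best known from dendritic cells and memory T cells, had a UMI in 7.17 to 13.3% of the cells. Since Batf3 was detected in few of them, the class is called Tcf7 Id3 cells below. Thy1, a surface glycoprotein of T cells that the rule did not use, had a UMI in 56.9 to 64.0% of Tcf7 Id3 cells, in 5.73 to 10.5% of the cells led by Spp1, Fcgr3 and Tyrobp, in 51.3 to 62.1% of those led by Scin, Gzmk and Il7r, and in 29.4 to 40.7% of the cells of no class. The classes that the rule keeps low in these genes had Tcf7 in 4.31 to 13.3% of cells, Id3 in 1.49 to 7.53%, Tgm2 in 0.405 to 5.48% and Batf3 in 0.0971 to 3.34%. Barcodes with fewer than 5 CD3 UMIs (20 to 38 per library, median depth 3028 to 11202 UMIs) had a Tcf7 UMI in 0 to 10%, a Thy1 UMI in 2.78 to 10%, a Batf3 UMI in 0 to 4%, a Tgm2 UMI in 16 to 30% and an Id3 UMI in 44 to 63.2%. Free RNA was not measured by itself, and its part in these shares was not tested.

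Most Tcf7 Id3 cells held more than 1 of the 4 genes. A single gene was detected in 780 cells (20.3%), 2 genes in 2016 (52.5%), 3 in 974 (25.4%) and all 4 in 69 (1.80%). The rule asked for at least 2 UMIs of these genes together, so this split depends on the choice of cells. The most frequent combination was Tcf7 with Id3 (883 cells, 23.0%), followed by Tgm2 with Tcf7 and Id3 (755 cells, 19.7%) and Tgm2 with Tcf7 (666 cells, 17.3%). Over all gated cells thinned to the same depth, each pair was found together more often than the product of the single shares gives. The median ratio over the 6 libraries was 3.65 for Tgm2 with Tcf7, 3.69 for Tgm2 with Id3, 3.41 for Tcf7 with Id3, 3.56 for Batf3 with Tcf7, 4.31 for Batf3 with Id3, and 2.51 for Tgm2 with Batf3. Of these 6 pairs, Tgm2 with Batf3 had the lowest median. The ratios are descriptions over cells that share libraries and depth.

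At the edge of the rule, 852 cells had exactly 2 UMIs of the 4 genes, 838 had 3 and 2149 had 4 or more. Just outside, 655 cells had 1 such UMI and none of the competing 6 genes, 161 had at least 2 but tied with another sum, and 811 had at least 2 but more of another sum. Gzma, granzyme A, had a median over the libraries of 3431 UPM (UMIs per 1000000 UMIs summed over the cells) in the cells with 1 such UMI, 1375 in those with 2 and 993 in those with 5 or more. Cells with under 5 Gzma UMIs per 10000 UMIs made up a median of 87.5%, 93.1% and 95.6% of these.

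Tcf7 Id3 cells were found in every segment and genotype. In the duodenum they were 545 of 3953 gated cells in WT mice (13.8%, interval 12.7 to 14.9%) and 503 of 3931 in Btnl2-KO mice (12.8%, 11.8 to 13.9%). In the jejunum they were 516 of 3592 in WT mice (14.4%, 13.2 to 15.6%) and 689 of 3807 in Btnl2-KO mice (18.1%, 16.9 to 19.4%). In the ileum they were 664 of 3703 in WT mice (17.9%, 16.7 to 19.2%) and 922 of 4658 in Btnl2-KO mice (19.8%, 18.7 to 21.0%). Both ileal libraries and the jejunal Btnl2-KO library had intervals above those of the other 3 libraries.

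**Figure D1:**
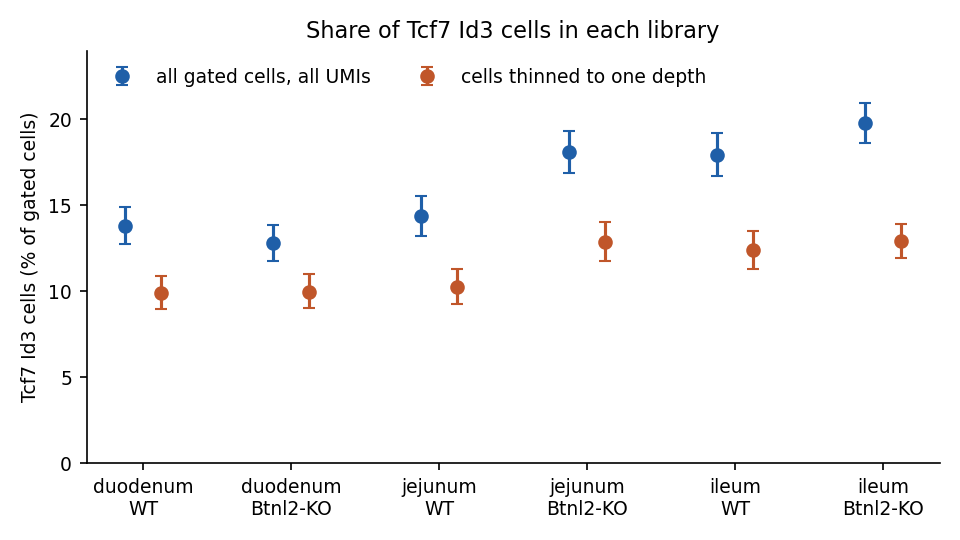
Share of Tcf7 Id3 cells among gated cells (y axis, percent) in each of the 6 single-cell libraries (x axis), with all UMIs and with every cell thinned to 2865 UMIs; points are shares and bars are exact 95% intervals for counting error. The unthinned shares run from 12.8 to 19.8% and the thinned shares from 9.91 to 12.9%.

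Because the rule counts UMIs, the shares were also taken after each gated cell was thinned to 2865 UMIs and 1421 shallower cells were left out (159 to 393 per library). Thinned, the duodenal shares of WT and Btnl2-KO mice were 9.91 and 9.98%, the jejunal shares 10.2 and 12.9%, and the ileal shares 12.4 and 12.9%. The ileal share was 1.30 times the duodenal share in WT mice (1.25 times thinned) and 1.55 times in Btnl2-KO mice (1.29 times thinned). The jejunal share was 1.04 times the duodenal share in WT mice (1.03 thinned) and 1.41 times in Btnl2-KO mice (1.29 thinned). The Btnl2-KO share was 0.928 times the WT share in the duodenum (1.01 thinned), 1.26 times in the jejunum (1.26 thinned) and 1.10 times in the ileum (1.04 thinned). With 1 library per group these ratios have no replicate check, and the sort and the pooling of mice can set them.

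Beyond the genes of the rule, Tcf7 Id3 cells shared higher levels of genes known from naive, progenitor and memory T cells. Levels are UPM, and a gene was called when Tcf7 Id3 cells differed from the other gated cells of the same library at least 2-fold in the same direction in all 6 libraries. Of 11665 genes with at least 50 UMIs, 234 were called higher (2.01%) and 237 lower (2.03%); the rule chose the cells in this contrast, so these counts carry no test. Of the 17 measured genes of a naive, progenitor and memory T cell list, 14 were higher in all 6 libraries, 11 were called higher, none was called lower and the median log2 ratio was 2.17. Over all genes tested, 21.5% were higher and 19.6% lower in all 6 libraries at any size, and the median was 0.02.

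The genes of the rule had the levels that the choice gives them. Tcf7 reached 278, 292, 296, 318, 327 and 304 UPM in the Tcf7 Id3 cells of the duodenum (WT, Btnl2-KO), jejunum (WT, Btnl2-KO) and ileum (WT, Btnl2-KO), Id3 334, 305, 275, 272, 286 and 233, and Tgm2 220, 193, 218, 196, 164 and 159. Batf3 was the lowest, at 43.4, 63.7, 26.2, 29.0, 48.0 and 48.7. Id3 and Tgm2 had their lowest values in the ileal Btnl2-KO library, and Tcf7 its lowest value in the duodenal WT library.

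Thy1 reached 503, 490, 567, 581, 557 and 502 UPM in the Tcf7 Id3 cells, in the same order of libraries. In the other gated cells of the same libraries it reached 160, 132, 160, 138, 196 and 166. The sets of values do not overlap, with a median log2 ratio of 1.74. The difference depended on the cells compared, with medians of 28.3 UPM in the cells led by Spp1, Fcgr3 and Tyrobp, 311 in those led by Scin, Gzmk and Il7r and 248 in the cells of no class.

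Slamf6, a surface receptor used to mark progenitor-like T cells, lay between 17.7 and 32.9 UPM (median 30.2) against 1.33 to 3.94 in the other cells (median 2.30), a median log2 ratio of 3.57. It was low in absolute level and higher in each of the 6 libraries. Klf2, a factor that drives S1pr1, lay between 16.1 and 36.6 against 2.61 to 7.07 (median log2 ratio 2.17). S1pr1, the receptor for lymphocyte exit from tissue, lay between 9.60 and 13.7 against 0.693 to 2.89 (2.67), and Ccr7, a chemokine receptor for lymph node entry, between 2.69 and 6.49 against 0.107 to 1.10 (2.87). The homing and retention list was mixed, with 3 of 14 measured genes higher and 6 lower in all 6 libraries, 1 called higher and 2 lower.

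Nuclear regulators of this list were higher as well. Satb1, a chromatin organiser of developing T cells, had a median of 24.6 UPM against 4.58 (median log2 ratio 2.73), Bach2, a repressor that restrains effector genes, 7.60 against 1.28 (2.52), and Sox4, a high-mobility-group factor of early lymphocytes, 9.75 against 0.698 (3.70). Lef1, the closest relative of Tcf7, had a median of 38.1 against 5.77 (2.73) and was the only called gene among the 13 measured members of the TCF and Wnt list. Other members of that list lay closer to 0, with a median log2 ratio of 0.19 over the list. Axin2, a common target of the Wnt pathway, had a median of 3.19 against 4.18 UPM, and Ctnnb1, β-catenin, 82.6 against 72.5.

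The list also holds secreted and surface proteins at higher levels. Xcl1, a chemokine for Xcr1-bearing dendritic cells, had a median of 650 UPM against 179 (median log2 ratio 1.83). Ltb, lymphotoxin β, had 546 against 163 (1.74), and Kit, the receptor for stem cell factor, 152 against 52.6 (1.51). Bcl2, Ikzf2, Foxp1 and Cd27 of the same list were not called, with median log2 ratios of 0.15, -0.09, 0.29 and 0.59. Outside that list, Csf2, the cytokine GM-CSF, was called higher with a median of 21.7 against 5.27 (2.07), and Ccr9, the receptor for small intestinal homing, with 453 against 177 (1.31).

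**Figure D2:**
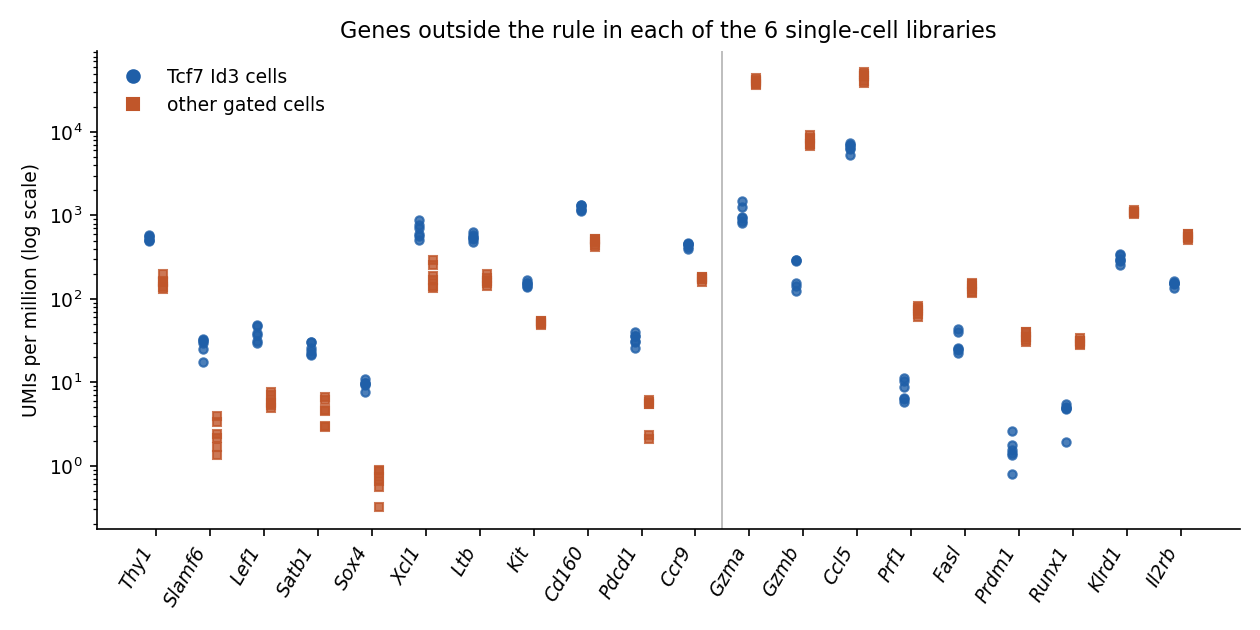
UPM (y axis, log scale) of genes that the rule did not use, in Tcf7 Id3 cells (circles) and other gated cells (squares), 1 point for each of the 6 single-cell libraries. Thy1 to Ccr9, left of the line, lie higher in Tcf7 Id3 cells in all 6 libraries, with Thy1 at 490 to 581 against 132 to 196, and Gzma to Il2rb, right of it, lie lower, with Gzma at 814 to 1497 against 36508 to 43959.

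Cytolytic genes were mostly lower in Tcf7 Id3 cells. Of 14 measured cytolytic genes, 11 were lower in all 6 libraries, 6 were called lower and none higher, with a median log2 ratio of -0.84. Gzma of WT and Btnl2-KO mice reached 867 and 814 UPM in duodenal Tcf7 Id3 cells, 1261 and 964 in jejunal ones, and 929 and 1497 in ileal ones. In the other gated cells it reached 36508, 37281, 40380, 39456, 42322 and 43959 in the same order. The values do not overlap, and the median log2 ratio was -5.38. Gzmb, granzyme B, lay between 123 and 296 against 6849 to 9103 (-5.27). Ccl5, a chemokine stored with granzymes, lay between 5264 and 7394 against 39091 to 51604 (-2.81).

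Prf1, perforin, which opens the target cell membrane, had a median of 7.66 UPM against 72.7 (-3.29), and Fasl, the Fas ligand, 25.4 against 136 (-2.32). Gzmc was the 6th gene called. Nkg7, Srgn and Cst7, granule proteins of killer cells, were lower in all 6 libraries without a call (median log2 ratios -0.98, -0.69 and -0.53). Ctsw, Lamp1 and Ctsc did not have lower values, with median log2 ratios of 0.08, 0.29 and 0.29, so the lower level did not cover every gene of the cytolytic machinery.

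The low granzyme level was a property of most single cells as well as of their sum. The median Tcf7 Id3 cell had 0 Gzma UMIs in all 6 libraries. The median cell led by Spp1, Fcgr3 and Tyrobp had 422 to 517 Gzma UMIs per 10000 UMIs, that led by Scin, Gzmk and Il7r 337 to 431, and that of no class 260 to 363. Under 5 Gzma UMIs per 10000 were found in 93.8 to 95.9% of Tcf7 Id3 cells, in 6.94 to 10.3% and 1.62 to 4.32% of the other named classes, and in 21.5 to 26.4% of the cells of no class. This limit was chosen after the values were seen, and 18 to 29 Tcf7 Id3 cells per library lay near it. Seen from the other side, 57.0 to 67.0% of all gated cells under the limit were Tcf7 Id3 cells. A Gzma UMI of any number occurred in 15.8 to 21.7% of Tcf7 Id3 cells, and in 25 to 52% of the barcodes with few CD3 UMIs, and the part of free RNA in it was not tested.

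**Figure D3:**
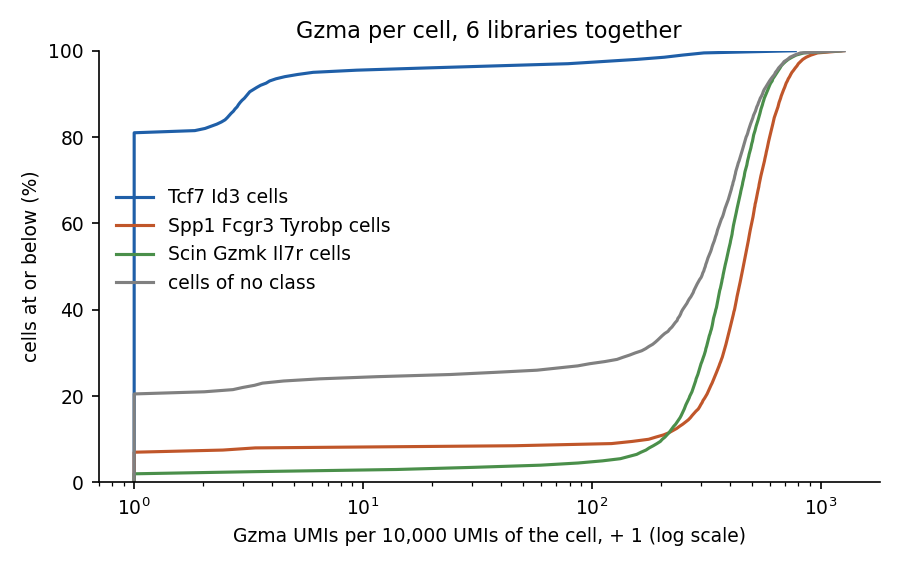
Cumulative share of cells (y axis, percent) at or below a given Gzma level (x axis, UMIs per 10000 UMIs of the cell plus 1, log scale) for Tcf7 Id3 cells, the other named classes and the cells of no class, over the 6 libraries together. The line of Tcf7 Id3 cells rises at the left edge, where their median of 0 lies, and the lines of the named classes rise between 100 and 1000.

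The DNA just upstream of the genes for granzyme A, granzyme B and Blimp-1 (Prdm1) is shown because these genes had the lowest ratios among cytolytic and lineage genes and because Tcf7, Id3 and Batf3 encode or inhibit DNA-binding factors. Each run gives the 250 bases before the RefSeq start of the gene (mouse build GRCm38.p6), 5′ to 3′ on the strand of the gene, and capitals mark the E protein motif (CAGGTG or its reverse CACCTG), the RUNX motif (TGTGGT or ACCACA) and the AP-1 motif (TGANTCA). No marked motifs overlap. The windows are chr13:113100982-113101231 on the minus strand for Gzma, chr14:56262335-56262584 on the minus strand for Gzmb and chr10:44458749-44458998 on the minus strand for Prdm1.
Gzma: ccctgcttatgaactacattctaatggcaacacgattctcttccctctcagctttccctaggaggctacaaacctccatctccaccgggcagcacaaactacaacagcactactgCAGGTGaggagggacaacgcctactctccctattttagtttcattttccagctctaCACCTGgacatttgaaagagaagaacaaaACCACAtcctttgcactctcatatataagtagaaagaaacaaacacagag
Gzmb: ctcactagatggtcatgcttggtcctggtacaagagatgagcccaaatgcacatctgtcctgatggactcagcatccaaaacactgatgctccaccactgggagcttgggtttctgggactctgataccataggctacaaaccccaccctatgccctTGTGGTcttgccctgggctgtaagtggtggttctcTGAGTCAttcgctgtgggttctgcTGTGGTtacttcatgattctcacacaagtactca
Prdm1: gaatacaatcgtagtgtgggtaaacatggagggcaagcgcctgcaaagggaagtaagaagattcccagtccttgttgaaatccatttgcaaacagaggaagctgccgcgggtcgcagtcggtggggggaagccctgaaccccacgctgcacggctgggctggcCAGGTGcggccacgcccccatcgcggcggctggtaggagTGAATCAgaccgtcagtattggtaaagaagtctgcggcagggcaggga

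In the Gzma window E protein motifs began 135 and 79 bases before the start and a RUNX motif 50 bases before it. In the Gzmb window RUNX motifs began at 93 and 34 bases and an AP-1 motif at 58 bases. In the Prdm1 window an E protein motif began at 87 bases and an AP-1 motif at 48 bases. The TCF/LEF motif was searched in the same windows and was not found. The windows of Tcf7, Id3, Batf3, Slamf6, Sox4, Eng and Lef1 were searched in the same way. They held none of the TCF/LEF, E protein, RUNX and AP-1 motifs and are not shown. The Tcf7 window holds a start codon (ATG) followed by codons without a stop up to its end, so it may lie inside the gene. Both strands were searched for 6 motifs in the genes with a window in the RefSeq table. The genes of a single chromosome were left out, and a single window was kept for each symbol. The E protein motif was in 21.1% of 175 windows of genes called higher, in 25.8% of 182 windows of genes called lower, in 14.6% of 8869 windows of all genes compared and in 17.1% of all 27025 windows. The AP-1 motif was in 2.29, 9.89, 3.97 and 6.87% of these sets, and the RUNX motif in 9.14, 16.5, 11 and 14.2%. The TCF/LEF motif (CTTTGA) was in 6.29, 8.79, 10.6 and 14%, the ETS motif (GGAAGT) in 20, 20.3, 24.9 and 20%, and the KLF/SP motif (GGGCGG) in 58.9, 48.9, 60 and 32.9%. These are matches of letters in a short window and give no binding.

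Among lineage transcription factors, 3 of 16 measured genes were called lower and none higher. Prdm1, which encodes Blimp-1, a repressor that drives effector differentiation, had 1.37, 1.54, 1.42, 1.78, 0.796 and 2.62 UPM in Tcf7 Id3 cells (37 UMIs in all) against 40.6, 34.5, 39.6, 30.5, 35.1 and 32.0 in the other cells, in the order of libraries used above. Every value in Tcf7 Id3 cells lay below every value in the other cells, with a median log2 ratio of -4.48. Runx1, a factor of T cell development, had a median of 4.92 against 30.8 (-2.60), while Runx3, the factor of cytotoxic T cells, had 291 against 281 and was not called (0.06). Zbtb7b had 2.68 against 9.75 (-1.51). Tbx21, T-bet, which drives interferon γ, had 50.8 against 82.7 (-0.73) without a call, and Ahr, the aryl hydrocarbon receptor that IELs need for their upkeep, had 84.7 against 39.5 (1.06) without a call.

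Few relatives and partners of Id3 and Batf3 were called. None of the 5 measured E proteins and other Id factors was called. Tcf3, Tcf12 and Tcf4, the E proteins, had median log2 ratios of 0.48, 0.42 and 0.33, and Id2, the other abundant Id gene of lymphocytes, had 232 UPM against 367 (-0.65). Of 12 measured AP-1 and Batf family genes, Maff was called higher (4.22 against 1.64, 1.32) and Fosl2 lower (2.39 against 7.46, -1.49). Batf had a median of 62.7 against 68.2, and Irf8, a partner of Batf3 in dendritic cells, 35.9 against 89.2 (-1.33) without a call.

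Receptors split in both directions. Among 11 measured inhibitory receptors, Pdcd1, which encodes PD-1, was called higher with 33.5 UPM against 5.53 (2.74), and Cd160, a receptor for HVEM, with 1247 against 496 (1.41). In the same list Havcr2 (TIM-3), Entpd1 (CD39), Lilrb4a and Cd200r1 were called lower, with median log2 ratios of -4.56, -2.40, -2.06 and -1.31; Havcr2 had 3 UMIs in all Tcf7 Id3 cells. Lag3 and Tigit were lower without a call (-1.20 and -1.18). Of 19 measured NK cell receptors and adaptors, 4 were called lower and none higher, among them Klrd1 (CD94) with 298 against 1095 (-1.88) and Klrg1, a marker of terminal effector cells, with 0.433 against 6.20 (-3.57). Il2rb, the receptor chain for IL-2 and IL-15, had 154 against 556 (-1.91), while Il2rg, the chain shared by several cytokine receptors, had 638 against 467 (0.45).

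Of 18 measured genes of T cell surface and proximal signalling, 5 were higher and 6 lower in all 6 libraries, 2 were called higher and 1 lower, and the median log2 ratio was 0.02. Lck, Lat, Cd247 and Ptprc, which carry the receptor signal, had median log2 ratios between -0.07 and 0.07. Cd8a, a chain of the CD8 coreceptor of IELs, had 1000 UPM against 1921 (-0.95) and Itgae, the integrin that binds epithelial E-cadherin, 709 against 988 (-0.52), neither called. Cd5 and Cd2, whose levels follow receptor signalling and T cell contact, had 7.66 against 1.86 (2.26) and 20.7 against 5.09 (1.98), of which Cd2 was called. Ifng, interferon γ, had 3.86 against 23.3 (-2.71), and the chemokines Ccl3 and Ccl4 16.3 against 201 (-3.67) and 53.4 against 586 (-3.70), all 3 called lower.

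The genes with the largest median ratios among those higher in every library had low levels. By the rule for named genes they included Tbxa2r, Maml3, Eng, 2610307P16Rik, Rgs18, Prss2, Gria3, Bend5, Sestd1, Plxdc2, Cpq, Sox4, Slc16a5 and Ampd1. Slc16a5, a carrier of monocarboxylates, had 16.6 UPM against 1.28 (3.68), Eng, the TGF-β coreceptor endoglin, 14.1 against 0.941 (3.93), and Gria3, a glutamate receptor subunit, 6.62 against 0.577 (3.87). The 15 with the lowest ratios were Lyl1, Gzma, Gzmb, Frmd5, Cdc20b, Mt2, Rai14, Gpx8, Gm10389, Ky, 1810011H11Rik, Havcr2, Il34, Prdm1 and Nrcam. Lyl1, a basic helix-loop-helix factor of early blood cells, had 0.352 against 22.3 (-5.45), and Mt2, a metallothionein, 0.440 against 15.7 (-4.87).

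Ratios of such low genes rest on few UMIs, and the 0.5 UMI added to each sum favours the smaller side. For a gene at 0 on both sides it alone gives a median log2 ratio of 2.31, past the 2-fold limit. Of the 234 genes called higher, 187 had at least 50 UMIs in Tcf7 Id3 cells. With 1 UMI in all, split by the size of the sides, 208 of the 234 genes called higher were called again and the count of lower genes was 272. Against each of the other named classes the counts were of the same order, and against the cells of no class they were lower. Compared with the cells led by Spp1, Fcgr3 and Tyrobp, 268 of 11187 genes were called higher (2.40%) and 311 lower (2.78%). Compared with those led by Scin, Gzmk and Il7r, 241 of 10869 were called higher (2.22%) and 188 lower (1.73%). Against the cells of no class, 79 were called higher and 135 lower, of which 68 and 129 were also called against all other gated cells. The number of genes tested in this contrast is not reported here, so these counts have no share beside them.

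Several defining markers of other cells that the sort could hold were at 0. All 5 tuft cell genes had no UMI in the Tcf7 Id3 cells, but they summed to only 0 to 0.437 UPM in the other gated cells. Also without a UMI were Ms4a1 and Mzb1 of the 6 B and plasma cell genes in the tables and Csf1r and Adgre1 of 8 macrophage genes. The same held for Clec9a, Flt3, Cd209a and Siglech of 9 dendritic cell genes. Other members of the B and plasma cell, macrophage and dendritic cell lists were present. The B and plasma cell list summed to 83.6 to 94.7 UPM, nearly all Cd79b at 83.1 to 94.7, against 90.7 to 96.9 in the other cells. The dendritic cell list summed to 27.6 to 47.2 UPM, mainly Itgax (12.3 to 26.5), H2-Aa (4.96 to 21.5) and H2-Ab1 (4.36 to 9.91), against 105 to 129.6 in the other cells, and the macrophage list to 1.15 to 6.49 against 8.71 to 10.4, with Cd68 at 1.06 to 3.98. The summed level of the 12 pan-epithelial genes was 133 to 237 UPM in Tcf7 Id3 cells, mostly Epcam and Cdh1, and 150 to 220 in the other gated cells. The innate lymphoid cell list went the other way, with a sum of 18.6 to 28.0 UPM against 8.83 to 14.2 in the other cells. Of its 2 measured genes, 1 was higher in all 6 libraries and none was called (median log2 ratio 0.60). Il1rl1 and Il22 of this list had no UMI in Tcf7 Id3 cells. Of the αβ T cell genes Cd4 and Foxp3 had medians of 0, while Cd8b1, a chain of CD8 that many αβ T cells carry, lay at 17.4 to 26.5 UPM. Median depth was 4770 to 5620 UMIs, and median mitochondrial share was 4.22 to 4.47% against 3.14 to 3.43% in the other cells. Hspa1a and Hspa1b, heat shock genes that rise when tissue is taken apart, were called higher (56.0 against 22.5 and 22.3 against 8.51 UPM), whose part in the other differences was not tested.

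The Tcf7 Id3 cells were not uniform, and among those without Batf3 the sets with and without Tgm2 differed. Pooled over the 6 libraries, cells with Tcf7 and Id3 but without Tgm2 or Batf3 had 443 Thy1 and 52.1 Klf2 UPM, and those with Tgm2, Tcf7 and Id3 had 696 and 5.70. Cells with Tcf7 alone had 416 and 44.6, those with Tgm2 and Tcf7 686 and 11.3, and those with Tgm2 alone 931 and 4.24. In these sets Tgm2 went with more Thy1 and less Klf2. Xcl1 lay at 757 and 820 in the sets without Tgm2 against 491, 401 and 289 in those with it. Sets with Batf3 were mixed. Cells with all 4 genes had 2019 Xcl1 and 156 Thy1 UPM against 1024 and 167 in those with Batf3, Tcf7 and Id3, while cells with Tgm2, Batf3 and Tcf7 had 453 and 201 against 798 and 161 in those with Batf3 and Tcf7. These values are sums without a spread over libraries, and the detection of Tgm2 depends on depth.

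Batf3 marked a smaller set of 37 to 120 cells per library. They were deeper than the other Tcf7 Id3 cells, with a median of 5431 to 6432 against 4628 to 5581 UMIs. Of 9966 genes, 42 were called at least 2-fold higher in all 6 libraries (0.421%) and 15 lower (0.151%). The genes named next, other than members of the fixed lists, were chosen after their values were seen. Thy1 was lower in cells with Batf3 (median log2 ratio -2.08), as were Klf2 (-2.35), Lef1 (-1.71), Ly6a, a surface antigen of memory T cells (-2.49), Eng (-2.15) and Slc16a5 (-4.15). Higher were genes of dividing cells, with Mki67 at 2.89, Stmn1 at 2.69, Ccnb2 at 2.85 and Tk1 at 3.26, the actin-capping gene Capg at 3.14, and the antigen presentation genes Cd74 and H2-Ab1 at 2.59 and 2.05. Pooled over libraries, Tyrobp had 286 UPM in cells with Batf3, Tcf7 and Id3 and 57.4 in those with Tcf7 and Id3. With Tgm2 as well these were 199 and 51.3, and every other pair of sets differing only by Batf3 went the same way. The rule holds Tyrobp, with Spp1 and Fcgr3, below the sum of Tcf7, Id3, Tgm2 and Batf3, and a Batf3 UMI raises that sum. These Tyrobp values thus depend on the choice of cells and carry no test. Cells led by Spp1, Fcgr3 and Tyrobp also had little Thy1 (a UMI in 5.73 to 10.5%), with Batf3 in 1.46 to 3.34%.

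Of 20 cell cycle genes, 17 were higher in all 6 libraries, 5 were called higher and none lower in cells with Batf3, where 878 of all 9966 genes were higher in all 6 libraries. Cells with at least 3 UMIs of 12 cell cycle genes made up 5.36 to 7.50% of those with Batf3 and 0.249 to 1.21% of the others. After thinning, these shares were 0 to 3.17% and 0 to 0.337%, and 3 of the 6 libraries had no such cell among 34, 42 and 56 cells with Batf3, which with a floor of 3 cells allows shares of up to 8.82, 7.14 and 5.36%. Slamf6, Xcl1 and Kit were not called (-1.29, 0.85 and 0.54), and neither was Gzma (-0.06). Of 3 tested dendritic cell genes, all 3 were higher in all 6 libraries and 2, H2-Aa and H2-Ab1, were called, with a median log2 ratio of 2.05, while Clec9a, Flt3 and Cd209a had no UMI in the Tcf7 Id3 cells. The part of dendritic cells in these values was not tested.

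**Figure D4:**
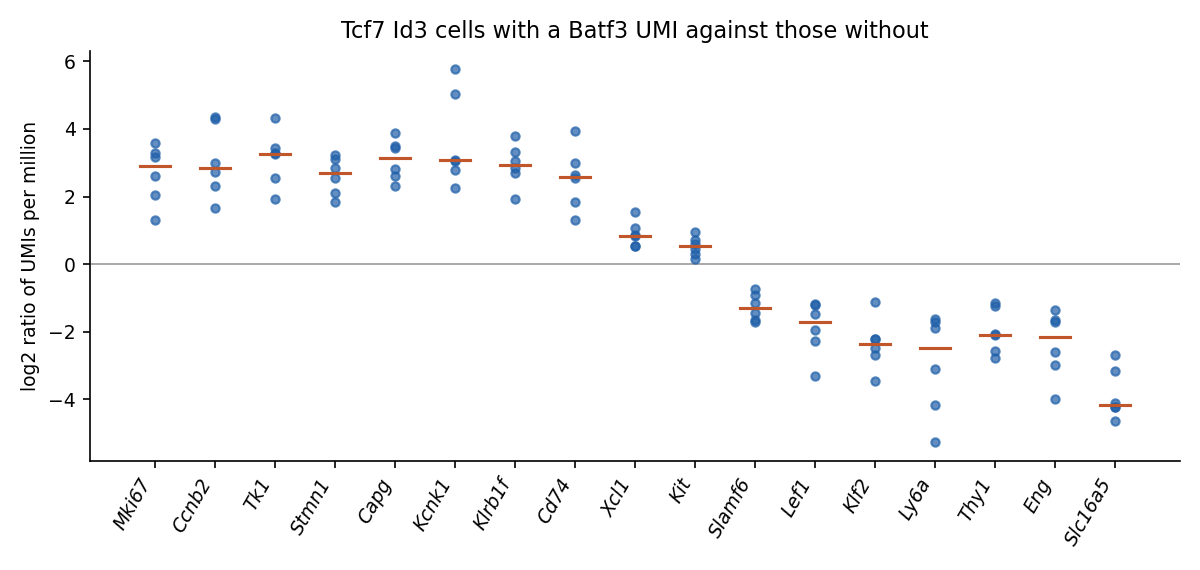
Log2 ratio of UPM (y axis) between Tcf7 Id3 cells with a Batf3 UMI and those without for 17 genes, 1 point for each of the 6 libraries and a bar at their median. Mki67 to Cd74 lie above 0 in all 6 libraries with medians of 2.59 to 3.26, and Lef1 to Slc16a5 lie below 0 with medians of -1.71 to -4.15.

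Few genes were called between the Tcf7 Id3 cells of Btnl2-KO and WT mice. Of 9966 genes with at least 50 UMIs in these cells, 3 were at least 2-fold higher in Btnl2-KO mice in all 3 segments (0.0301%) and 1 was lower (0.0100%). Ly6c2, a surface antigen of memory T cells, had 0, 0 and 0.796 UPM in the WT duodenum, jejunum and ileum and 2.30, 6.62 and 3.14 in the Btnl2-KO libraries, from 53 UMIs in all. Hes1, a target of Notch, had 2.05, 2.48 and 1.06 in WT and 6.14, 6.11 and 4.01 in Btnl2-KO mice. Tmem176b had 0.342, 1.77 and 1.86 in WT and 4.61, 4.59 and 4.19 in Btnl2-KO mice, and Mid1, an X-linked ubiquitin ligase, 16.4, 13.8 and 9.82 in WT and 5.76, 5.35 and 2.79 in Btnl2-KO mice. None of the 4 was called after thinning. Thy1 and Tcf7 had median log2 ratios of -0.04 and 0.07, and none of the 15 measured naive, progenitor and memory genes or 13 cytolytic genes was called.

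Between ileal and duodenal Tcf7 Id3 cells, 17 of 9513 genes were at least 2-fold higher in the ileum in both genotypes (0.179%) and 18 lower (0.189%). Epithelial genes were among them, with Fabp6, an ileal bile acid binder, at 9.82 and 5.93 UPM in the ileum (WT and Btnl2-KO) and 0 and 0 in the duodenum. Fabp1, a fatty acid binder of the upper intestine, was at 0 and 0 in the ileum and 9.57 and 11.5 in the duodenum. Among immune genes, Ifng had 7.43 and 8.72 in the ileum and 1.03 and 1.54 in the duodenum, from 28 and 50 UMIs in the ileum and 3 and 4 in the duodenum. Ly6a had 49 and 104 UMIs in the ileum and 10 and 8 in the duodenum. Hspa1a, the heat shock gene, had 21.8 and 22.3 in the ileum and 155 and 119 in the duodenum.

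None of the 15 measured naive, progenitor and memory genes was called between these segments in Tcf7 Id3 cells, 10 were lower and 2 higher in the ileum in both genotypes, and the median log2 ratio was -0.15. Of all 9513 genes, 3522 were lower and 2197 higher in both genotypes. Slamf6 had 29.5 and 30.9 UPM in ileal Tcf7 Id3 cells and 25.3 and 17.7 in duodenal ones. In the other gated cells Slamf6 had 3.35 and 3.94 in the ileum and 1.33 and 1.68 in the duodenum. The ileal values of the other cells were above the duodenal ones in each genotype.

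The bulk libraries of sorted γδ IELs, 4 WT in each segment and 3, 4 and 3 Btnl2-KO in the duodenum, jejunum and ileum, give replicates for the same genes in all γδ IELs together. They were not used by the rule but, by the study's methods, came from the same sorted samples, so they are not an independent set of mice. The methods also give the segments as taken from the same pools of mice, the labels do not tie libraries to pools, and the tests treat libraries as independent, so that p-values between genotypes over the 3 segments may be too small. A difference in bulk cannot tell fewer Tcf7 Id3 cells from less RNA of the gene per cell. Levels are counts per 1000000 counts of the library (CPM), and tests are from edgeR's quasi-likelihood method over 22 libraries with Benjamini-Hochberg adjusted p (FDR), called at an FDR below 0.05 and a fold change above 1.5. The ileal and jejunal comparisons share the duodenal libraries.

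Tcf7 had 37.5, 46.2, 73.3 and 46.2 CPM in the 4 WT and 46.8, 47.8 and 51.5 CPM in the 3 Btnl2-KO libraries of the duodenum. In the jejunum it had 135.0, 127.5, 114 and 133.5 CPM in WT and 134, 158, 62.6 and 125 CPM in Btnl2-KO libraries. In the ileum it had 76.0, 52.45, 58.5 and 96.9 CPM in WT and 108, 53.3 and 168 CPM in Btnl2-KO libraries. All but 1 of the jejunal libraries lay above every duodenal library, while ileal and duodenal libraries overlapped. Tcf7 rose in the jejunum (log2 fold change 1.29, SE 0.229, edgeR FDR 0.00231) and was not called in the ileum (0.79, SE 0.233, edgeR FDR 0.0741). DESeq2 and a covariate fit called the ileal difference, with an FDR of 0.0168 by DESeq2 and 0.0364 with an epithelial covariate, and in WT libraries alone it was 0.49 (edgeR FDR 0.503).

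Tgm2 ranged from 65.3 to 111 CPM in the duodenum (median 82.0), 96.9 to 186 in the jejunum (median 172) and 73.3 to 168 in the ileum (median 104). It rose in the jejunum (0.88, SE 0.164, edgeR FDR 0.00326) and was not called in the ileum (0.45, edgeR FDR 0.213). Intestinal epithelial cells of 16 other libraries of the series had 171 to 247 CPM of Tgm2, more than most γδ IEL libraries, and 3.50 to 10.1 CPM of Tcf7. Those tables were made separately, so the levels are set side by side without a test. The mean log2 CPM of 12 pan-epithelial genes in the γδ IEL libraries was 7.51 to 8.37 in the duodenum, 3.70 to 8.45 in the jejunum and 5.79 to 8.94 in the ileum. With this mean as a covariate the jejunal rise was 1.29 for Tcf7 and 0.90 for Tgm2, with edgeR FDRs of 0.00178 and 0.00209.

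Id3, Batf3 and Thy1 were not called between segments over the 22 libraries without a covariate. Id3 had medians of 95.9, 79.5 and 91.2 CPM in the duodenum, jejunum and ileum, Batf3 6.35, 3.64 and 4.88 CPM, and Thy1 29.5, 16.03 and 24.3 CPM. None was called in the jejunum (log2 fold changes -0.43, -0.74 and -0.66, edgeR FDRs 0.0801, 0.166 and 0.132) or the ileum (0.01, 0.08 and 0.06). With the epithelial covariate Thy1 fell in the jejunum by 0.84 on the log2 scale (edgeR FDR 0.0371). In WT libraries alone Batf3 and Thy1 fell in the jejunum, by 1.44 and 1.12 on the log2 scale (edgeR FDRs 0.0156 and 0.00473). The ileal Btnl2-KO library 2 held 20.4 CPM of Batf3 and 75.1 CPM of Thy1, above each other bulk library, and a pan-epithelial mean of 5.79.

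**Figure D5:**
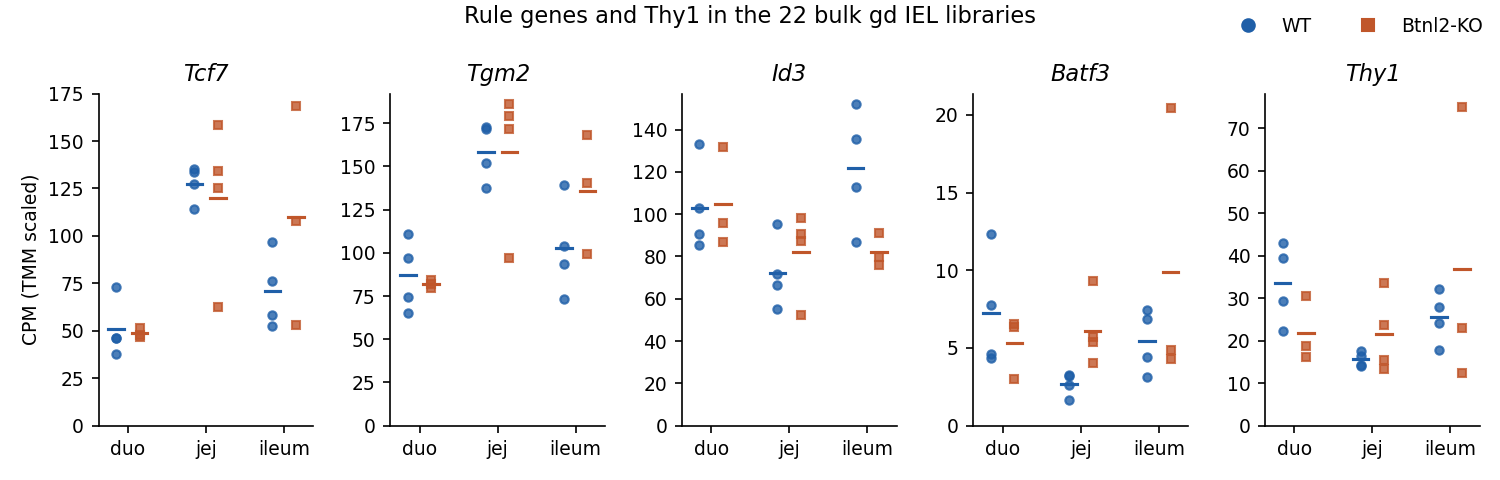
CPM (y axes, linear) of Tcf7, Tgm2, Id3, Batf3 and Thy1 in the 22 bulk γδ IEL libraries by segment (duo is duodenum, jej is jejunum) and genotype; points are libraries and bars are group means. Jejunal libraries lie above duodenal ones for Tcf7 and Tgm2 except Btnl2-KO library 3, at 62.6 and 96.9 CPM.

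Some of the genes that marked Tcf7 Id3 cells in the single-cell libraries rose in the jejunum and ileum in bulk. Of the naive, progenitor and memory list, 6 of 17 tested genes rose in the ileum, where 1.06% of 13360 genes rose, and none fell (1.53% of all genes fell). In the jejunum 7 of 17 rose, where 5.23% of all genes rose, and none fell (5.91%). The median log2 fold change of the list was 0.44 in the ileum and 0.37 in the jejunum, beside 0.01 and -0.01 over all genes. As the list was known to mark the cells from the same sorted samples, this is not independent support.

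Slamf6 ranged from 4.14 to 6.65 CPM in the duodenum (median 5.28), 10.5 to 20.5 in the jejunum (median 12.8) and 7.09 to 13.6 in the ileum (median 11.4). No jejunal or ileal library overlapped the duodenal ones, and the gene rose in both (1.35, SE 0.147, edgeR FDR 1.46e-05 and 1.01, SE 0.150, edgeR FDR 0.000240). S1pr1 ranged from 0.878 to 2.92, 2.66 to 6.57 and 4.37 to 8.27 CPM in the 3 segments and rose by 1.29 in the jejunum and 1.68 in the ileum (edgeR FDRs 0.00420 and 0.000497). Satb1 rose by 0.82 and 1.18 (edgeR FDRs 0.00558 and 0.000328), Klf2 by 0.60 and 1.28, and Ccr7 by 1.13 and 1.33. Lef1 rose in the ileum (0.70, edgeR FDR 0.0269) and was not called in the jejunum (0.41, edgeR FDR 0.0823).

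Pdcd1 rose in the jejunum and the ileum (1.35 and 1.27, edgeR FDRs 0.000112 and 0.000121). Kit rose in the jejunum from a median of 68.0 to 161 CPM (1.09, edgeR FDR 0.00790), as did Ccr9 from 262 to 479 CPM (0.82, edgeR FDR 0.000951), and neither was called in the ileum (0.44 and 0.34). Gzma and Gzmb, the cytolytic genes furthest below the other cells in Tcf7 Id3 cells, were not called in either segment. Their log2 fold changes were 0.06 and 0.45 in the jejunum and 0.03 and 0.33 in the ileum.

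In WT libraries alone none of Slamf6, Satb1, Klf2, S1pr1, Ccr7, Pdcd1 and Lef1 was called in the ileum (edgeR FDRs 0.0519 to 0.670), with log2 fold changes of 0.41 to 1.51. The weakest ileal calls, Lef1 and Ccr7, were also lost on leaving out single libraries. In the same ileal comparison H2-Aa and H2-Ab1, which antigen-presenting cells express, rose by 1.63 and 1.52, none of 4 tested B and plasma cell genes (median 0.68) or 4 macrophage genes (median 0.70) was called, and their part in the result was not tested.

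Over all 225 tested genes called higher in Tcf7 Id3 cells, 24 rose and 3 fell in the ileum (10.7 and 1.33%), with a median log2 fold change of 0.24 beside 0.01 over all genes. In the jejunum 34 rose and 8 fell (15.1 and 3.56%), with a median of 0.11 beside -0.01. Of 224 tested genes called lower, 7 rose and 10 fell in the ileum (3.12 and 4.46%), with a median of -0.01. In the jejunum 22 rose and 17 fell (9.82 and 7.59%), with a median of 0.03. Over all genes tested, 1.06% rose and 1.53% fell in the ileum, and 5.23 and 5.91% in the jejunum. The genes called lower were thus also above the shares of all genes in both directions.

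Btnl2-KO and WT bulk libraries differed in few genes. Of 13360 genes, 1 rose (0.00749%), an identifier without a symbol in the RefSeq table, and 1 fell (0.00749%), Btnl2 itself, by 7.80 on the log2 scale (edgeR FDR 1.93e-09). Tcf7, Id3, Tgm2, Batf3 and Thy1 were not called (log2 fold changes 0.15, -0.10, 0.11, 0.58 and 0.16), and of the 225 and 224 genes that marked Tcf7 Id3 cells 0 were called, while 6 of each had an unadjusted p below 0.05, as did 212 of all 13360 genes. The genotype by segment interaction called 0 genes by edgeR, with 1040 of 13360 at an unadjusted p below 0.05.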

How the data were processed

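Single-cell libraries were made by the authors with a droplet method that reads the 5′ end, and Cell Ranger gave the deposited UMI counts per gene and barcode on mm10 with RefSeq gene models. Bulk tables of γδ IELs and epithelial cells hold expected counts that the authors made with RSEM on sense-strand exons, and these were rounded here before any test. Of the bulk columns, 1 belongs to no sample and was not used. The cells, lists and tests were chosen with earlier results of these data known. Single-cell ratios used summed UMIs plus 0.5 for genes with at least 50 UMIs, with calls at 2-fold in every library (Python 3.11.15, numpy 2.4.6, scipy 1.17.1, pandas 2.3.3, scanpy 1.11.5). Bulk genes with at least 10 counts in at least 3 libraries were tested in R 4.3.3 with edgeR 4.0.16 (TMM scaling, quasi-likelihood test, segment and genotype as terms, Benjamini-Hochberg adjustment); DESeq2 1.42.0 was an alternative. Both scripts were tested on simulated data. Named were the rule genes, Thy1, Btnl2, list members, the 15 genes with the highest and lowest median ratios of 1 sign in all 6 libraries, and up to 5 called genes in each direction between genotypes. Replicate pairs of bulk libraries differed beyond counting noise (30 pairs, chi-square per degree of freedom 15.9 to 368). Tissue libraries and protein sequences were not analysed here. T cell receptor genes were looked for by symbol, were absent from the single-cell counts and were not analysed further. Some genes of the lists are counted but not reported here by name. Other settings left out each library, thinned cells or changed the filter, the scaling or the tool.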

Additional observations from a re-analysis of the deposited data

Results flagged for a closer look

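The Tgm2 level of the jejunal Btnl2-KO bulk library 3 was 96.9 CPM, while the other 3 jejunal Btnl2-KO libraries had 172, 179 and 186 CPM. The gap is larger than Dixon's 95% critical value for a group of 4. It was found among 20 values tested (5 genes in the 4 groups of 4 libraries), and chance alone gives about 1 in 20. The same library had the lowest Tcf7 level of the jejunum, at 62.6 CPM.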

How the results depend on the processing

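The share of Tcf7 Id3 cells depends on depth and on the minimum of UMIs. With at least 3 UMIs it was 10.5 and 9.72% in the duodenum (WT, Btnl2-KO), 11.2 and 14.1% in the jejunum and 14.2 and 15.5% in the ileum, and thinned it was 9.91, 9.98, 10.2, 12.9, 12.4 and 12.9%. Genes called against other cells numbered 128 higher and 146 lower after thinning (114 and 137 of them called before), and 79 and 135 against cells of no class. Leaving out each single-cell library in turn, the counts against all other gated cells ranged from 237 to 251 and from 249 to 265. A call asks for 2-fold in every library, so with a library left out these counts can hardly fall. Between genotypes, thinned cells gave 0 and 0 calls and a minimum of 20 UMIs gave 5 and 2. The choice of the added UMI was an alternative chosen after seeing the data.

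In bulk, the ileal count was 306 higher and 471 lower with the epithelial covariate, 217 higher by DESeq2 and 135 lower in WT libraries alone, which gave 1339 and 1611 in the jejunum. Within single segments, 0 genes were higher in Btnl2-KO libraries in the duodenum, jejunum or ileum and 0 lower in the ileum. Leaving out each library gave 93 to 175 higher and 150 to 250 lower genes in the ileum and 388 to 1032 and 439 to 1302 in the jejunum. The lowest ileal count came without duodenum WT 2, the lowest jejunal counts without duodenum WT 1 (388 and 439), and jejunal counts of lower genes moved to 478, 505 and 1302 without jejunum WT 1, WT 3 and Btnl2-KO 3. Ileal Tcf7 was called without duodenum WT 3, jejunum Btnl2-KO 3, ileum WT 2 or ileum Btnl2-KO 2 (edgeR FDRs 0.0263 to 0.0401). Ileal Ccr7 was lost without duodenum WT 1, WT 2, WT 4, Btnl2-KO 2 or Btnl2-KO 3, or ileum WT 4, Btnl2-KO 1 or Btnl2-KO 3 (edgeR FDRs 0.0536 to 0.103), and ileal Lef1 without duodenum WT 1, any duodenal Btnl2-KO library, or ileum WT 1, Btnl2-KO 1 or Btnl2-KO 2 (0.0509 to 0.0852). Jejunal Ccr7 was lost without duodenum WT 1, WT 2 or Btnl2-KO 3 (0.0509 to 0.0577) and jejunal Klf2 without duodenum WT 1 or WT 3 or jejunum WT 4 (0.0323 to 0.0586, log2 fold changes 0.52 to 0.58).

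None of the values that reversed in sign was called. With the covariate they were -0.036 for Thy1 in the ileum and, for Btnl2-KO against WT, 0.038 for Id3 and -0.11 for Thy1. In WT libraries alone they were -0.40 for Batf3 and -0.39 for Thy1 in the ileum. Btnl2-KO against WT gave in the duodenum alone -0.061 (Tcf7), 0.029 (Id3), -0.081 (Tgm2), -0.44 (Batf3) and -0.62 (Thy1), and in the jejunum alone -0.057 (Tcf7) and 0.22 (Id3). Without single libraries the ileal value ranged from -0.098 to 0.093 for Id3, -0.29 to 0.38 for Batf3 and -0.33 to 0.20 for Thy1, and the genotype value of Thy1 from -0.16 to 0.27. Jejunal Klf2 was lost in WT libraries (0.69, edgeR FDR 0.0777) and fell under the fold limit with the covariate (0.57), while jejunal Thy1 was called with it (-0.84, edgeR FDR 0.0371). For these changes the cause was not tested. No paired analysis was possible because the labels give no replicate number shared between groups. Genes with few UMIs, such as Batf3 and Prdm1, limit what the single-cell ratios show.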
